A study of Homo sapiens with 3 samples.

Results

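The widest accessible regions of hCMEC/D3 cells, which are immortalized endothelium from human brain microvessels, were chosen by peak width: all ATAC-seq peaks of at least 2000 bp on chromosomes 1 to 22 and X. They numbered 641 of 106415 peaks in the deposited list, and 106390 of those peaks lay on the 23 chromosomes used. ATAC-seq marks open chromatin with the Tn5 transposase, which cuts and tags DNA where it is not covered by nucleosomes. The series holds 1 ATAC library of these cells (replicate 2 by its title) and 2 RNA libraries. All came from confluent cultures on collagen for which no treatment is named, and the line is a single established culture model without the astrocytes, pericytes and blood flow that surround brain endothelium in the animal. The peaks were called on 22188172 tags that remained of 31532245 after 1 tag per position was kept. Because width selected them, width and every signal of the same peaks are described and not tested. With 1 library no value has a replicate, and the 95% Wilson intervals below cover counting error over peaks or genes alone. Peaks of 400 to 800 bp, 37883 in number, served as the comparison.

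Most accessible regions are short gaps between nucleosomes, where a transcription factor or the transcription machinery occupies DNA. Longer open stretches are known from active promoters, which are often rich in the dinucleotide CG (CpG islands), from pairs of genes transcribed away from a shared region, and from short genes packed close together. The replication-dependent histone genes, which supply the core of the nucleosome during DNA synthesis, are such short genes: most lack introns and sit side by side in clusters.

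Promoter sequences at 6 of the regions are shown because the results below turn on what lies at the starts: a TATA box and CCAAT boxes at histone genes, and CpG density at other genes. They are the 250 bases before a start listed by RefSeq on GRCh38.p14, written 5′ to 3′ on the strand of the gene. In the promoters of H2BC3 (chr6:26043714-26043963, minus strand) and H2AC20 (chr1:149886668-149886917, plus strand), which encode a histone H2B and a histone H2A, capitals mark TATAAA and CCAAT or their reverse complements TTTATA and ATTGG:
H2BC3: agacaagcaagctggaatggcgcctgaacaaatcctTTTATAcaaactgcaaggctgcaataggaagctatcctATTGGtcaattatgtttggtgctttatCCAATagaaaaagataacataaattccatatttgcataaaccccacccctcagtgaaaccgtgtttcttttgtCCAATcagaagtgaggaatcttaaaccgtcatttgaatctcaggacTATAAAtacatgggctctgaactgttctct
H2AC20: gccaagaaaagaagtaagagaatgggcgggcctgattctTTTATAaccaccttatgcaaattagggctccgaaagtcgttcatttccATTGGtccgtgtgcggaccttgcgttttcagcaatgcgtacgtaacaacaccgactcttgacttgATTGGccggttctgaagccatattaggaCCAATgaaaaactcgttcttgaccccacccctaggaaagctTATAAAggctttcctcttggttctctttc
Each has 5 marked matches. The TATAAA nearest the start begins 30 bases before it in H2BC3 and 29 bases before it in H2AC20, and the nearest CCAAT begins 76 and 70 bases before it.

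In the next 4 promoters capitals mark every CG. COL4A1 (chr13:110307158-110307407, minus strand) encodes a chain of the basement membrane collagen that endothelium rests on, ADGRL2 (chr1:81800126-81800375, plus strand) an adhesion G protein-coupled receptor, VIM (chr10:17227991-17228240, plus strand) the intermediate filament protein vimentin, and CDH2 (chr18:28177131-28177380, minus strand) N-cadherin:
COL4A1: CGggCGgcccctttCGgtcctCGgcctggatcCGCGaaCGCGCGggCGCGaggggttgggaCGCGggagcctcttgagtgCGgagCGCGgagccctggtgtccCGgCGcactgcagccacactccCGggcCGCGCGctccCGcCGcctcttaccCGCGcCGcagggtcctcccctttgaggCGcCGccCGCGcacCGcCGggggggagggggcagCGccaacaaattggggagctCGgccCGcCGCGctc
ADGRL2: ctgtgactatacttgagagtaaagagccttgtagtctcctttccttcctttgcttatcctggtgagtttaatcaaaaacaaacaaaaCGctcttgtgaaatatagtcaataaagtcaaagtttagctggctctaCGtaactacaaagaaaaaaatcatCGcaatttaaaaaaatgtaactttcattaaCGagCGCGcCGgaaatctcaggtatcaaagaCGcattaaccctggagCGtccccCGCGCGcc
VIM: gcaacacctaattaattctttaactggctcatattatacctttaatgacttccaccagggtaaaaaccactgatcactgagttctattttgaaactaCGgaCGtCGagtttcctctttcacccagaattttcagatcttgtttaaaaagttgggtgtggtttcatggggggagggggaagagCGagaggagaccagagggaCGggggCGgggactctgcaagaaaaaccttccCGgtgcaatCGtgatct
CDH2: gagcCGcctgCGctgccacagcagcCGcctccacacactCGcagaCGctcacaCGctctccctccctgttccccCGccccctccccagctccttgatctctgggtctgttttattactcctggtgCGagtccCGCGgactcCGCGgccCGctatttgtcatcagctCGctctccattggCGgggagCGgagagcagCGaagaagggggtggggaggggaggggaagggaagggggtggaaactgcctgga
COL4A1 has 38 CG dinucleotides in this stretch, CDH2 17, ADGRL2 12 and VIM 8. The stretches of COL4A1 and CDH2 lie wholly inside their peaks, while those of ADGRL2 and VIM begin before the peak and end within it. For ADGRL2 and CDH2 the RefSeq table lists more than 1 start, and the one shown is the farthest upstream of those inside the peak.

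The narrowest wide peak measured 2000 bp, the median 2213 bp and the widest 3580 bp, with quartiles of 2090 and 2395 bp. They made up 0.603% of peaks and 2.41% of all bases in peaks, 1.46 Mb. Near the limit, the 3 narrowest members were the peak at PPM1B, with 2000 bp and a pileup of 85.7 tags, a peak of 2000 bp inside HLCS with 47.9 tags, and a peak of 2001 bp at PPP3CA with 66.4 tags. The 3 peaks just outside it, each of 1999 bp, lay at LGALSL (36.2 tags), DBNDD2 (33.5 tags) and PDCD1LG2 (72.1 tags). The values on either side of the limit overlapped.

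Wide peaks lay mostly at the ends of genes. Of the 641, 531 (82.8%, interval 79.7% to 85.6%) came within 1 kb of an end of a gene, 80 (12.5%) lay inside a gene away from its ends and 30 (4.68%) lay between genes. Of the peaks of 400 to 800 bp, 17.8% (17.4% to 18.2%) were at a gene end, 55.0% inside a gene and 27.2% between genes. A long peak reaches a gene end more easily than a short one, so the placement was repeated with the single base at the centre of each peak. The shares at a gene end were then 75.7% (72.2% to 78.8%) and 15.4% (15.1% to 15.8%). Counted against protein-coding genes alone they were 74.1% and 9.86%. The rise was stepwise over width: 11.6% at 200 to 399 bp, 43.8% at 801 to 1199 bp and 68.2% at 1200 to 1999 bp.

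**Figure D1:**
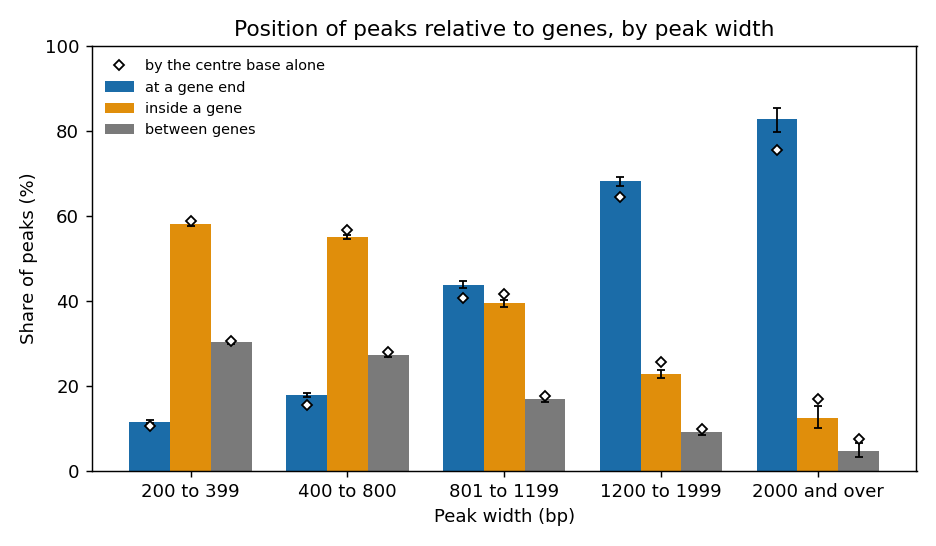
Share of ATAC peaks at a gene end, inside a gene and between genes (y axis, %) in 5 classes of peak width (x axis, bp), with 95% Wilson intervals; diamonds give the same shares by the centre base of the peak. The share at a gene end climbs from 11.6% to 82.8%, and the diamonds follow the bars.

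Strong signal in a short peak did not go with the same placement. Among the 4925 peaks of 400 to 800 bp with a pileup of at least 48.3 tags, the median of wide peaks, 25.3% (24.1% to 26.5%) were at a gene end and 23.3% between genes. Within the wide class the share at a gene end had no steady trend, with 80.4% at 2000 to 2249 bp, 89.8% at 2250 to 2499 bp, 79.3% at 2500 to 2999 bp and 81.3% (57.0% to 93.4%) for the 16 peaks of at least 3000 bp.

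The pileup, the mean number of overlapping tags across a peak, had a median of 48.3 tags in wide peaks (quartiles 37.6 and 60.8, range 11.5 to 248.5) and 25.2 tags in peaks of 400 to 800 bp. The fold over local background went the other way, with medians of 3.51 and 5.12. None of the 641 wide peaks exceeded a fold of 5.33, whereas the highest fold among the 37883 comparison peaks was 14.3. A maximum tends to rise with the number of peaks, so these maxima are not on equal terms. The local background derived from both values had a median of 13.3 tags at wide peaks and 3.47 tags at the comparison peaks. It sat at its minimum, 2.37 tags, for 27.4% of comparison peaks and for 0 of the 641 wide peaks. The caller estimates this background from the surrounding 10000 bp of the same library, tags of the peak included, and its part in the lower fold was not tested. In a bulk library more cells with an open region and more cutting per cell cannot be told apart.

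**Figure D2:**
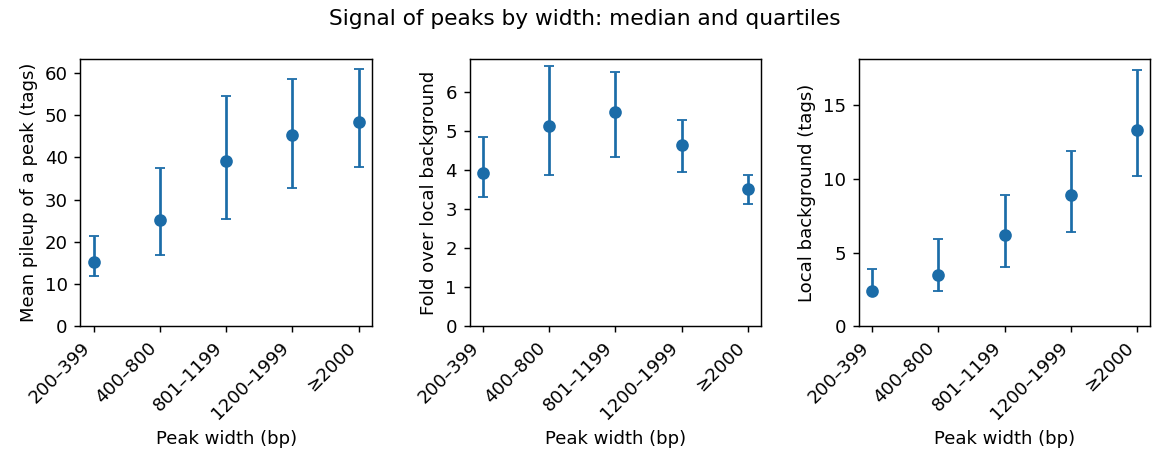
Median (point) and quartiles (bars) of the authors' pileup in tags, of their fold, and of the local background in tags derived from them, in 5 classes of peak width (x axis, bp). Pileup and background are highest in the widest class, at 48.3 and 13.3 tags, while the fold is highest at 801 to 1199 bp, at 5.48.

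The 5 peaks of highest fold measured 2018 to 2159 bp and were all at gene ends. They lay at LOC107984011 within TRPM3 (fold 5.33, pileup 85.4 tags, 2074 bp), at PHTF1 (4.93, 44.4 tags), between the chaperonin gene TCP1 and the mitochondrial ribosomal gene MRPL18 (4.86, 81.1 tags), at IFI16 and PYDC5 (4.85, 35.1 tags) and at KIF1B (4.69, 67.2 tags). IFI16 encodes a sensor of DNA and KIF1B a kinesin motor.

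The widest peak, 3580 bp on chromosome 6 from 131945831 to 131949410, lay at CCN2, which encodes a secreted matrix-associated protein and is a standard target of the YAP and TEAD factors. Its pileup was 90.8 tags, its fold was 1.85, and it covered the 3′ end of the gene without reaching the listed start. The third widest, 3504 bp inside ADGRL2, had a pileup of 50.2 tags and held listed starts of that gene although it lay away from the ends of the annotated gene. CDH2 followed in the seventh place with 3346 bp and 43.9 tags, and HIVEP2, a zinc finger gene, with its divergent transcript HIVEP2-DT in the ninth with 3258 bp and 52.5 tags. A peak of 3171 bp with 30.7 tags came within 1 kb of the 3′ end of SGK1, a kinase induced by serum and glucocorticoids. It overlapped no gene, its fold was 1.94, and its −log10 q-value, 2.03, was the lowest of all wide peaks. Another, of 3123 bp, overlapped ABHD15 and TP53I13, with the start of TP53I13 inside it and 47.1 tags. The sixth, of 3357 bp on chromosome 14, overlapped the angiogenin gene ANG, RNASE4 and 3 transfer RNA genes with a pileup of 54.2 tags. Histone genes accounted for 4 of the 12 widest and the ribosomal RNA gene RNA45SN1 for 1.

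Starts came from the RefSeq promoter table, whose rows cover 15811 protein-coding genes and 22 of the 23 chromosomes. On those chromosomes 437 of 619 wide peaks (70.6%, 66.9% to 74.1%) held a listed start, compared with 6.83% (6.57% to 7.09%) of the comparison peaks and 57.7% of peaks of 1200 to 1999 bp. Among the wide peaks at a gene end without a listed start, 54 had an end gene that the table lacks. In the central 400 bp alone, a stretch of the same length in every peak, a start lay in 22.9% (19.8% to 26.4%) of wide peaks, 30.7% (29.6% to 31.8%) of peaks of 1200 to 1999 bp and 5.83% of comparison peaks. A start thus lay in this fixed stretch less often in the widest class than in the next narrower one, by intervals that do not overlap. The stretch is a smaller part of a longer peak, with median widths of 2213 and 1412 bp. The shares therefore cannot show whether starts were less central relative to peak width.

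The end in question was usually the one where transcription begins. For protein-coding genes whose strand the promoter table gives, 404 wide peaks lay at an end, and 384 of them (95.05%) lay at a 5′ end. The other 20 (4.95%, 3.23% to 7.52%) lay at 3′ ends alone as far as these genes go. Ends of genes outside this set were not counted. Among the 20, a peak of 2382 bp wholly covered TNFRSF12A, and a peak of 2121 bp held the listed start of LOC124903726. The 3′-only share was 28.4% (26.8% to 30.1%) at 400 to 800 bp, 7.29% at 801 to 1199 bp and 4.48% (3.86% to 5.20%) at 1200 to 1999 bp. The 2 widest of the 20 were the peaks at CCN2 and SGK1 described above. Others lay at the 3′ ends of PTX3, which encodes a secreted pentraxin (2451 bp, 55.9 tags), of VMP1 beside the microRNA gene MIR21 (2444 bp, 93.4 tags) and of CDC25B, a cell cycle phosphatase gene (2436 bp, 48.3 tags). These 3 were picked after their values were seen. The PTX3 peak came within 1 kb of PTX3 without overlapping it and overlapped VEPH1.

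Wide peaks extended farther into the gene than ahead of it. In the 278 peaks that held starts of exactly 1 gene, the median length upstream of the start was 869 bp (quartiles 461 and 1326 bp) and the median length downstream was 1360 bp (864 and 1755 bp). The downstream part was the longer one in 177 of them (63.7%, 57.9% to 69.1%). The same share was 66.7% (65.0% to 68.5%) at 1200 to 1999 bp and 47.2% (45.1% to 49.3%) at 400 to 800 bp, so the downstream lean was shared with the next narrower class. Because the start farthest upstream was used where a gene had several inside the peak, downstream lengths are upper values.

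**Figure D3:**
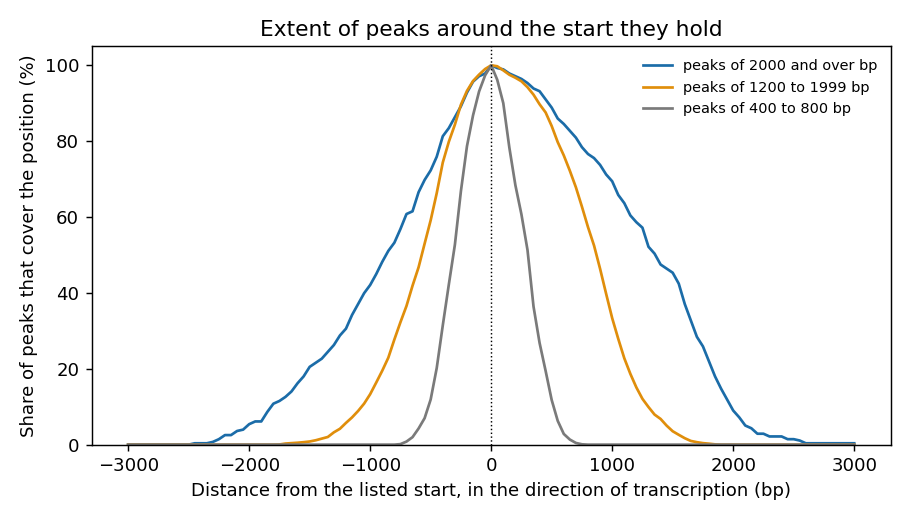
Share of peaks (y axis, %) that cover each distance from the listed start they hold (x axis, bp, downstream to the right), for peaks holding starts of 1 gene in 3 width classes. At 1000 bp downstream, 69.4% of wide peaks still cover the position, compared with 33.3% of peaks of 1200 to 1999 bp. The 0% of peaks of 400 to 800 bp is fixed by their width, since they hold the start. The other shares also depend on the widths that define the classes.

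Many wide peaks were shared by neighbouring genes. Starts of 2 genes were held by 150 of the 619 peaks, starts of 3 genes by 9, and starts of at least 2 by 25.7% (22.4% to 29.3%), compared with 18.3% (17.4% to 19.2%) at 1200 to 1999 bp and 0.667% at 400 to 800 bp. At least 2 genes were overlapped by 306 of the 641 wide peaks (47.7%, 43.9% to 51.6%) and by 9.20% of the comparison peaks. Per kilobase of peak the order reversed, with 0.659 genes in wide peaks and 1.41 in comparison peaks, so the larger number per peak went with the larger length. A property of the gene is whether the start of another gene lies on the opposite strand within 1000 bp upstream. Its share over genes can still rise with peak length, because a longer peak can hold the starts of both genes of a pair. This head-to-head arrangement was found for 29.5% (25.6% to 33.8%) of the 474 protein-coding genes with a start in a wide peak, 15.4% (13.7% to 17.2%) of the 1608 with a start in a 400 to 800 bp peak, and 32.6% (31.2% to 34.0%) of the 4251 with a start in a 1200 to 1999 bp peak. It was thus more frequent than at short peaks and not distinct from the next narrower class. The part of peak length in these shares was not tested. COL4A1 and COL4A2, the paired basement membrane collagen genes, are an example: both start in 1 peak of 2965 bp on chromosome 13 with a pileup of 41.9 tags.

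Promoters of genes with a start in a wide peak were rich in CG. Over the 300 bases from 250 before to 50 after the start, the ratio of observed to expected CG had a median of 0.88 (quartiles 0.75 and 0.98), compared with 0.79 for genes with a start in a 400 to 800 bp peak and 0.30 for the 4925 protein-coding genes with a start in no peak. The median was 0.87 at 1200 to 1999 bp. The corresponding GC contents were 69.7%, 63.7%, 53.3% and 68.0%. A ratio under 0.6 was found for 23.1% of genes at 400 to 800 bp. It was found for 8.75% (7.94% to 9.64%) at 1200 to 1999 bp. At wide peaks 50 of the 474 genes (10.5%, 8.09% to 13.6%) had one. Among the CpG-poor examples were KLHL3, with a ratio of 0.14, and ZBTB38, with 0.15 and a pileup of 97.5 tags in a peak of 2621 bp. COL4A1, printed above, had 1.02, CDH2 0.69 and VIM 0.58. ADGRL2 had the highest ratio of these 4, 1.28, at a GC content of 44.7%.

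Short motifs were counted in the same 300 bases on both strands, with overlaps between motifs allowed. The GC box GGGCGG, read by Sp and Kruppel-like factors, occurred in 76.2% (72.1% to 79.8%) of promoters at wide peaks. It occurred in 77.0% (75.7% to 78.2%) at 1200 to 1999 bp and in 68.0% at 400 to 800 bp. Over all 15809 promoters searched the share was 59.8%. The share at wide peaks was thus not distinct from that of the next narrower class. The ETS letters CCGGAAG occurred in 9.92% (7.54% to 12.9%) at wide peaks, in 15.9% (14.2% to 17.7%) at 400 to 800 bp, in 18.8% (17.7% to 20.0%) at 1200 to 1999 bp and in 14.5% of all. CCAAT occurred in 29.1% (25.2% to 33.4%) at wide peaks, in 36.9% at 400 to 800 bp and in 36.3% of all. ETS and CCAAT letters were therefore less frequent at wide peaks than in either of these narrower classes, by intervals that do not overlap for ETS letters or, for CCAAT, with 36.5% (35.0% to 37.9%) at 1200 to 1999 bp and 34.6% to 39.3% at 400 to 800 bp. The AP-1 letters TGANTCA occurred in 4.22% (2.75% to 6.43%) of promoters at wide peaks and 5.66% of all promoters. The TEAD letters CATTCC occurred in 12.03% (9.40% to 15.3%) and 11.6%, and the letters TGACGT, read by CREB and ATF factors, in 10.97% (8.46% to 14.1%) and 9.78%. Each of these 3 intervals includes the share over all promoters. A match is a description of the letters and not evidence of binding.

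TATAAA was found in 8.86% (6.62% to 11.8%) of promoters at wide peaks, in 4.23% (3.67% to 4.88%) at 1200 to 1999 bp, in 6.90% (5.76% to 8.25%) at 400 to 800 bp and in 9.54% of all promoters. The share at wide peaks was above that of the next narrower class and its interval overlapped those at 400 to 800 bp and over all promoters. Histone genes held 16 of the 42 matches. Of the 25 replication-dependent histone genes with a listed start in a wide peak, 16 had TATAAA and 24 had CCAAT, as in H2BC3 and H2AC20 above. Among the other 449 genes TATAAA occurred in 5.79% (3.98% to 8.35%), compared with 3.97% (3.42% to 4.60%) of non-histone genes at 1200 to 1999 bp, and with 6.80% (5.66% to 8.13%) at 400 to 800 bp, and these intervals overlap. Without histone genes the CCAAT share was 25.4% (21.6% to 29.6%), and that of the ETS letters 10.2% (7.77% to 13.4%). The histone promoters had a median GC content of 43.0%, compared with 70.3% for the other promoters at wide peaks. Of the 35 histone genes whose start lay in a narrower peak, 23 had TATAAA and 27 had CCAAT.

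Across all 19970 protein-coding genes of the table, 601 (3.01%) had a wide peak at an end. Replication-dependent histone genes had one far more often: 26 of 69 (37.7%, 27.2% to 49.5%), in 13 peaks of 2132 to 3528 bp with pileups of 47.0 to 74.5 tags. The second widest peak of all, 3528 bp on chromosome 6 from 26042844 to 26046371, covered H2BC3, H3C3 and the pseudogene H2AC5P at 58.6 tags and 2.70-fold over background. On chromosome 1, 11 of 13 histone genes had a wide end peak. There the peaks ranked 4, 5 and 8 by width stood within 77.0 kb of each other together with a narrower one at H3C13: 3453 bp at H3C14 and H2AC18 (71.5 tags), 3427 bp at H3C15, H4C15 and H2AC19 (66.1 tags) and 3306 bp at H2BC21, H2AC20 and H2AC21 (74.5 tags). H2AC18 with H3C14 and H2AC19 with H3C15 are near-identical copies, so reads of one can be placed on the other and their values are uncertain. On chromosome 6, 15 of 55 histone genes had a wide end peak, the widest apart from H2BC3 and H3C3 being 2709 bp at H1-5 and H2AC16 (64.7 tags) and 2703 bp at H1-4 and H2BC5 (72.1 tags). H1-4 and H1-5 encode linker histones. In all, 24 protein-coding genes lay wholly inside a wide peak, most of them histone genes of 402 to 797 bp such as H4C1 and H1-5, and TNFRSF12A, a receptor gene of 2016 bp, in a peak of 2382 bp.

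Genes of some small RNA classes also lay in wide peaks. Of 443 transfer RNA genes, 28 (6.32%, 4.41% to 8.98%) had a wide peak at an end, in 12 peaks. Peaks at chromosome 17 positions 8118124 to 8120932 and 8220735 to 8223278 held 4 transfer RNA genes each, with widths of 2809 and 2544 bp and pileups of 63.5 and 75.9 tags. The former also overlapped HES7 and ALOXE3 and, with 6 genes, overlapped more genes than any other wide peak. A peak of 2909 bp and 42.0 tags on chromosome 1 overlapped 4, namely the metalloprotease gene ADAM15, its readthrough with EFNA4, DCST1 and DCST1-AS1. Spliceosomal and other small nuclear RNA genes had a wide end peak in 6 of 154 cases (3.90%, 1.80% to 8.24%), among them the neighbours RNU4-1 and RNU4-2, within 1 peak of 2045 bp and 62.7 tags, and RNU2-2. RMRP, which encodes the RNA of an endoribonuclease, lay wholly inside a peak of 2326 bp. The share was 1.41% for microRNA genes, 0.0836% (1 of 1196) for small nucleolar RNA genes, 1.05% for long noncoding RNA genes and 0.0986% for genes classed as pseudogenes, compared with 1.503% of all 59094 genes. Divergent transcripts, noncoding genes named for the coding gene they start beside, stood at 38 of 593 (6.41%, 4.70% to 8.67%). No wide peak lay at an end of any of 417 olfactory receptor genes, with an upper limit of 0.913%, although 24 had a peak of any width at an end.

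Lists of genes were then read against the 3.01% of all protein-coding genes. Of 300 listed genes found in the table, 33 had a wide peak at an end. Most lists hold genes known to be active or regulated in endothelial cells, and they were written with earlier results of these data in view. Of 21 YAP and TEAD target or pathway genes 6 (28.6%, 13.8% to 49.96%) had one. CCN1, the matricellular relative of CCN2, had a peak of 2255 bp with 99.9 tags. ANKRD1, a cofactor gene of the muscle ankyrin repeat family, had 2281 bp and 60.8 tags. ARHGEF17, a guanine nucleotide exchange factor gene, had 2463 bp and 74.0 tags, and YAP1 itself had 2502 bp and 37.4 tags. The folds of CCN1, CCN2 and ANKRD1 lay between 1.85 and 2.31, and those of ARHGEF17 and YAP1 were 3.42 and 3.57. The peak of ANKRD1, like that of CCN2, lay at the 3′ end of the gene, and that of YAP1 held its start.

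**Figure D4:**
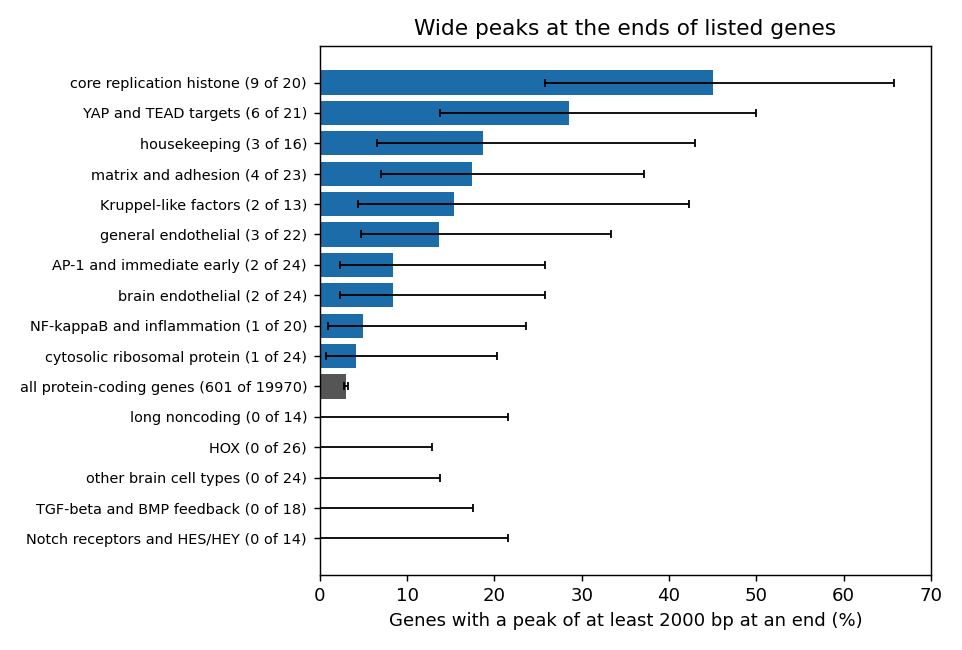
Share of the genes of each list with a peak of at least 2000 bp at an end (x axis, %), with 95% Wilson intervals and the counts beside the names; the grey bar is all protein-coding genes. Core replication histone genes (9 of 20) and YAP and TEAD genes (28.6%) lie highest, and 5 lists have no such gene.

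Among endothelial genes, wide end peaks were found for 3 of 22 general endothelial genes (13.6%, 4.75% to 33.3%) and for 2 of 24 genes of brain endothelium (8.33%, 2.32% to 25.8%). The general ones were CLEC14A, a surface lectin of tumour and angiogenic vessels (2144 bp, 66.8 tags), the secreted factor EGFL7 (2245 bp, 75.0 tags) and the transcription factor SOX17 (2272 bp, 35.2 tags). The CLEC14A peak held its start. The peak counted for EGFL7 came within 1 kb of its 3′ end but overlapped only the neighbouring gene AGPAT2, at a fold of 1.87. The brain endothelial ones included the tight junction gene CLDN5, claudin-5, with 2005 bp and 51.0 tags. Other markers of the label were open over narrower stretches. The widest end peaks of CDH5 and PECAM1, which encode junctional adhesion proteins of endothelium, measured 452 and 924 bp. Those of the vascular growth factor receptor gene KDR and the glucose transporter gene SLC2A1 measured 1733 and 1682 bp. Of 24 genes of other brain cell types 13 had an end peak of some width and 0 a wide one. The widest of these belonged to the synaptic vesicle gene SYT1 (1624 bp, 27.7 tags), the myelin gene MBP (1558 bp, 30.0 tags) and the pericyte gene RGS5 (1110 bp, 56.8 tags). Of the microglial genes, CX3CR1 and CSF1R had end peaks of 349 and 463 bp, while AIF1, P2RY12 and TMEM119 had none.

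Genes of the extracellular matrix, adhesion and cytoskeleton had wide end peaks in 4 of 23 cases (17.4%, 6.98% to 37.1%): the shared peak of COL4A1 and COL4A2, VIM with 2533 bp and 54.9 tags, and the cytoplasmic actin gene ACTG1 with 2442 bp and 54.2 tags at its 3′ end. Housekeeping genes had them in 3 of 16 (18.8%, 6.59% to 43.0%), namely B2M, SDHA and HSP90AB1, with widths of 2169, 2059 and 2092 bp and pileups of 24.8, 41.5 and 46.1 tags. The B2M peak lay at the 3′ end, and those of SDHA and HSP90AB1 held a start. GAPDH, with 1986 bp, lay just under the limit. Of 13 Kruppel-like factor genes KLF9 (2547 bp, 63.9 tags) and KLF11 (2091 bp, 44.2 tags) had one. Of 24 AP-1 and immediate early genes the phosphatase genes DUSP1 (2288 bp at the 3′ end, 89.5 tags) and DUSP6 (2203 bp, 73.8 tags) had one, while JUN, FOSL2 and EGR1 had end peaks of 1618, 1504 and 1766 bp with pileups of 91.7, 87.3 and 90.7 tags. In the NF-kappaB list 1 of 20 genes, NFKB1 with 2010 bp and 41.9 tags, and among cytosolic ribosomal protein genes 1 of 24, RPS9 with 2258 bp and 48.8 tags at its 3′ end, had one. No wide end peak was found in the lists of HOX genes (0 of 26), TGF-beta and BMP feedback (0 of 18), Notch (0 of 14) or long noncoding genes (0 of 14), although 18 of 18, 13 of 14 and 12 of 14 of the last 3 lists had an end peak of some width. With so few genes the interval of a list reaches well above the background, up to 21.5% for 0 of 14. The peaks counted above for ACTG1, B2M, DUSP1 and RPS9 came within 1 kb of the 3′ end of the gene but overlapped no gene.

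Wide peaks away from gene ends numbered 110. Inside genes, 29 held a listed start, as at an internal promoter: besides ADGRL2 these included KLF12 (2483 bp), PRICKLE1 (2408 bp), RUNX1 (2376 bp) and SOD2 (2100 bp), examples chosen after their values were seen. A further 49 held none, among them the 2871 bp peak inside NIBAN2 with 34.0 tags and a fold of 2.35, and one of 2281 bp inside the long noncoding RNA gene NEAT1 with 58.7 tags. KLF9 had a wide peak at its end and a second one, 2650 bp with 100.2 tags, inside its divergent transcript KLF9-DT. A pair of wide peaks also lay in each of DGKH, RIPOR1, KDM6B and MCF2L2. The 30 peaks between genes had a median distance of 29762 bp from centre to nearest listed start and a median pileup of 48.6 tags, close to the 48.3 tags at gene ends. The widest of these were a peak of 3000 bp on chromosome 16 from 46398585 to 46401584 (31.8 tags) and peaks of 2997 bp (66.2 tags) and 2825 bp (51.1 tags) on chromosome 3, at 177357294 to 177360290 and 157127881 to 157130705. The others of the 5 widest were 2733 bp on chromosome 21 (100.2 tags) and 2727 bp on chromosome 4 (53.7 tags). The centre of the chromosome 4 peak was 549322 bp from the nearest listed start, and the nearest other peak was 51402 bp away. Mappability was not examined, so the part of read placement in these 5 peaks was not tested. The wide peak of lowest pileup, 11.5 tags over 2043 bp on chromosome 20, was also between genes.

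Wide peaks had another wide peak nearby more often than comparison peaks did. Another wide peak lay within 50 kb for 62 of 641 (9.67%, 7.62% to 12.2%), against 4.72% (4.51% to 4.94%) of comparison peaks, in 28 groups. The group of 4 was the histone cluster on chromosome 1 described above. The groups of 3 were 2 histone clusters on chromosome 6, the ribosomal RNA genes on chromosome 21, and a stretch of 35.4 kb on chromosome 16 with RIPOR1 and CTCF, which encodes the chromatin insulator protein. The number of peaks of any width within 50 kb had a median of 8 around wide peaks and 7 around comparison peaks.

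By chromosome, the share of peaks that were wide ran from 0.377% (0.211% to 0.674%) on chromosome X to 1.28% (0.804% to 2.05%) on chromosome 21, around 0.603% over all. Chromosomes 16, 17 and 6 followed with 0.817%, 0.800% and 0.795%, and apart from chromosomes 21 and 6 each interval included the overall share. Peaks of 400 to 800 bp made up 34.4% to 39.5% of each chromosome's peaks. Per 100 protein-coding genes, wide peaks numbered 1.30 on chromosome X, 1.52 on chromosome 19 and 7.11 on chromosome 21.

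**Figure D5:**
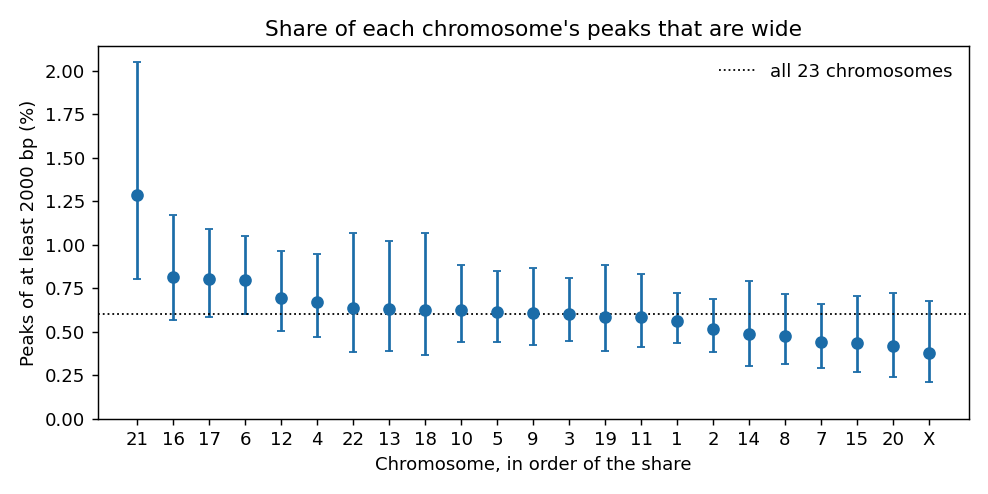
Share of the peaks of each chromosome that are at least 2000 bp wide (y axis, %), with 95% Wilson intervals, in order of the share; the dotted line is the share over all chromosomes, 0.603%. Chromosome 21 stands highest at 1.28% and chromosome X lowest at 0.377%.

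The position of chromosome 21 rested on the part nearest its short-arm end. Of its 17 wide peaks 12 lay in the first 10 Mb, where 6.63% (3.83% to 11.2%) of 181 peaks were wide, and the remaining 1142 peaks gave 0.438% (0.187% to 1.02%). The 12 had pileups of 72.5 to 159.4 tags, and the other 5 had 27.1 to 62.1 tags, so the groups did not overlap. Of the 12, 4 overlapped or adjoined the ribosomal RNA genes RNA45SN1, RNA45SN2 and RNA45SN3, present in many near-identical copies, with folds of 1.69 to 2.00. Another 5, between genes or within CTBP2P9, were alike in width, pileup and fold, with widths of 2695 to 2746 bp, pileups of 93.9 to 101.5 tags and folds of 3.39 to 3.45. A peak of 3080 bp with 147.8 tags lay inside LOC102724701, in the same 10 Mb. So did a peak of 2620 bp at MIR6724-2, with 121.9 tags and a fold of 1.90. The genes MIR6724-3 and MIR6724-4 lay in peaks at RNA45SN3 and RNA45SN1. A peak of 2100 bp at MIR10396A and MIR3648-2 had 72.5 tags and a fold of 4.50. The wide peak of highest pileup, 248.5 tags over 2374 bp on chromosome 1 from 629101 to 631474, overlapped MTND1P23, MTND2P28 and MTCO1P12, nuclear copies of mitochondrial genes. The gene SRGAP2 and its duplicates SRGAP2B and SRGAP2D each held a wide internal peak, with widths of 2185, 2185 and 2164 bp and pileups of 53.9, 52.7 and 58.9 tags. At such repeated sequences reads can be placed on any copy, so a value cannot be assigned to 1 copy, and the part of read placement in these peaks was not tested. Leaving out the 13 wide peaks at ribosomal RNA genes, mitochondrial pseudogenes and in the first 10 Mb of chromosome 21, the share at a gene end was 83.4% of 628.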

How the data were processed

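The material was 1 ATAC-seq library and 2 RNA-seq libraries of hCMEC/D3, grouped by their titles. Per the file headers, MACS 2.2.7.1 made the broad peak list that the authors deposited, giving for each peak a pileup signal, a fold (ratio of pileup to local background), −log10 p-value and −log10 q-value. The headers record no control, paired-end mode off, 1 tag kept per position, a shift of -100 bp, an extension of 200 bp and q limits of 0.05 (strong) and 0.1 (broad). They also record the mouse genome size, 1870000000 bp, for these human cells. It puts the background floor at 2.37 tags, and a larger size would lower that floor. The headers name no build; Bowtie2, Picard, and the builds GRCh38 and mm10 are named in the submitters' processing notes. The RNA tables list transcripts that the files do not pair with genes and were not used here.

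Peaks were placed against 59094 RefSeq genes of GRCh38.p14 (any overlap with 1 kb either side of a gene end), and starts and sequences came from the RefSeq promoter table of that build. As a check of the build, 49.8% of 34961 listed starts lay in a peak, and 3.15% to 3.54% after peaks were moved by 10000 or 100000 bp. Local background was derived as (pileup + 1)/fold - 1. Of 301 list symbols, 300 matched. The placement code was tested on simulated data. Python 3.11.15, pandas 2.3.3 and scipy 1.17.1 were used. Intervals are 95% Wilson. No test between groups was possible with 1 library. The members and lists were chosen with earlier results of these data known. Named were the 12 widest peaks, the 5 of highest pileup and of highest fold, the 5 widest of each location class, peaks overlapping the most genes, list members with a wide end peak (some are counted but not reported by name here) and the 3 peaks either side of the limit; genes holding at least 3 wide peaks were to be named, but no gene held more than 2. Alternatives changed the window, overlap, gene set, width limit, comparison class and q.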

Additional observations from a re-analysis of the deposited data

How the results depend on the processing

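No paired analysis was possible because there was 1 ATAC library. Of 37 alternative values for 11 results, 12 stayed within the reported interval (or within 1.5 times a count) and 25 moved, 5 of the 37 having been chosen after seeing the data. A wider window, another limit or fewer genes changes a share by construction; for the rest the cause was not tested. The 82.8% of wide peaks at a gene end became 75.7% by the centre base, 74.1% with protein-coding genes, 77.3% at a limit of 1500 bp and 79.6% at 2500 bp. The 17.8% of comparison peaks became 13.5% and 27.9% with windows of 500 and 2500 bp, 15.4% by the centre base, 9.86% with protein-coding genes, 17.3% at −log10 q of at least 5, 16.1% with an overlap of at least 200 bp, 43.7% for peaks of 800 to 1200 bp and 25.3% at high pileup (added). In each of these pairs the share of wide peaks was the higher one. The share between genes was 12.04% and the median pileup 52.3 tags at a limit of 2500 bp. The 641 peaks became 3297 at 1500 bp, 108 at 2500 bp and 1164 after merging peaks closer than 500 bp. The share holding a listed start was 66.3% at 1500 bp, 62.0% at 2500 bp, 66.7% with protein-coding genes and 22.9% in the central 400 bp (added). At 1500 bp the wide share was 4.31% on chromosome 21 and 2.26% on chromosome X; without its first 10 Mb (added) chromosome 21 had 0.438%. At 1500 bp, 97 list members had a wide end peak instead of 33. Regions split by a short gap of low signal count as narrow here, and a region below the lowest pileup called, 8.0 tags, was not detectable at this depth.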
